A study of Mus musculus with 24 samples.

Results

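Of the 57 mouse genes on the array whose names place them in cytochrome P450 families 1 to 3, 49 had a probe in the study's own value table, and these 49 genes are described here across 24 liver arrays. They were chosen by gene name and by having a probe in that table, with earlier results of these data known, and each gene was read by its probe with the highest mean signal over the 24 arrays. Family 1 gave 3 genes, family 2 gave 40 and family 3 gave 6, in 16 subfamilies, out of 21372 gene names tested and 37074 on the array. The names Cyp2b13, Cyp2b19, Cyp2b23, Cyp2c39, Cyp2c65, Cyp2c66, Cyp2j11 and Cyp3a44 met the name rule but had no probe there and were not analysed here. All 49 genes passed the filter on dim probes.

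The study compared livers of male mice, 12 weeks old, that all carried floxed alleles of Pik3ca, the gene of the PI3K catalytic subunit p110α. In p110aLKO mice (LKO) an albumin promoter drove Cre, which is meant to act in hepatocytes, and p110aLWT littermates (LWT) lacked Cre. Mice of each genotype were either Fed ad libitum or Fasted for 24 h, with 6 mice and 6 arrays in each of LWT_Fed, LWT_Fasted, LKO_Fed and LKO_Fasted. Whole liver was hybridised, so fewer cells of a type and less RNA per cell cannot be told apart.

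On the 24 arrays 54.7% to 63.0% of spots were well above background and no spot was saturated. The fitted array weights ran from 0.32 to 1.74, and the lowest, 0.32 for LWT_Fed replicate 3, 0.36 for LKO_Fasted replicate 4 and 0.44 for LWT_Fasted replicate 2, were all on the first slide. The Pik3ca probe ran from 12.30 to 13.02 (log2 intensity) on arrays labelled LKO_Fed against 11.71 to 12.25 in LWT_Fed, and from 12.03 to 12.50 in LKO_Fasted against 12.05 to 12.42 in LWT_Fasted. It was therefore not lower in the arrays labelled LKO, and whether the probe lies in the deleted part was not tested. The second principal component of all tested probes held 13.6% of the variance. On it LWT_Fed lay at 15.19 to 26.98, LWT_Fasted at 16.04 to 24.99 and LKO_Fed at -29 to -19.1. LKO_Fasted replicates 1 and 2 lay beyond LKO_Fed, at -35.1 to -31.2. The other 4 LKO_Fasted arrays lay between LKO_Fed and LWT, at -2.92 to -1.40. Without LKO_Fasted replicates 1 and 2 the same 18 genes were called with fasting in LKO and the same 11 between genotypes in Fasted livers. The difference in fasting change is given both ways.

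Cytochrome P450 enzymes are haem proteins of the endoplasmic reticulum that insert an oxygen atom into fat-soluble molecules, taking electrons from the reductase POR. Families 1 to 3 oxidise most drugs and other foreign compounds, and many of their members also act on steroids, fatty acids, vitamin D or bile acids. In liver their genes are switched on by the sensors AHR, CAR and PXR, several are stronger in hepatocytes around the central vein, and a set of mouse members is set by the sex-dependent pattern of growth hormone.

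Most of these genes stand in tandem arrays of near copies, and the promoters of 4 of them are shown first to let the copies be compared. These windows are not the transcript stretches that the array probes bind, which are given after them. The genes called for a different fasting change in the 2 genotypes (below) included both members of the pairs Cyp2a4 and Cyp2a5 and Cyp2c37 and Cyp2c50. RefSeq promoter windows (250 bases before to 50 after the start, GRCm38.p6) were found for 41 of the 49 genes, and the 4 printed here are on the plus strand. The Cyp2a4 window at chr7:26306942-26307241 and the Cyp2a5 window at chr7:26835089-26835388 were identical at 294 of 299 aligned bases. The 2 windows are printed with the bases that have no identical partner in capitals.
Cyp2a4: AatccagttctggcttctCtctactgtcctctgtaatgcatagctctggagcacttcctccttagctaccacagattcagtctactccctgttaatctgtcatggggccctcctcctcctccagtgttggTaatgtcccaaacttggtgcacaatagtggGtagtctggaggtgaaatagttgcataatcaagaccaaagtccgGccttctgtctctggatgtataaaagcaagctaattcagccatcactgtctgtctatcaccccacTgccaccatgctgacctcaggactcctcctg
Cyp2a5: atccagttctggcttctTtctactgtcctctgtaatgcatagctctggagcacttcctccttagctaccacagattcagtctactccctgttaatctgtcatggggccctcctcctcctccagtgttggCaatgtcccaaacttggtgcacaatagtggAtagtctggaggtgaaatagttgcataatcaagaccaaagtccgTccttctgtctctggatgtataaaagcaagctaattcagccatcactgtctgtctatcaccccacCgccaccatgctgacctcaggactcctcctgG

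The Cyp2c37 window at chr19:39992174-39992473 and the Cyp2c50 window at chr19:40089429-40089728 were identical at 264 of 295 aligned bases, with capitals used in the same way.
Cyp2c37: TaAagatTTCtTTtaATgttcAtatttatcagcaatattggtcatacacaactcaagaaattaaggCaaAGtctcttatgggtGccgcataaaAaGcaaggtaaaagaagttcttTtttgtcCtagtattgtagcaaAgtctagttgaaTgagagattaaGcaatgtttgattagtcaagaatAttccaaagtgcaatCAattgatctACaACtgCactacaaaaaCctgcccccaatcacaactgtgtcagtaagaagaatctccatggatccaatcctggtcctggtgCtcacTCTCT
Cyp2c50: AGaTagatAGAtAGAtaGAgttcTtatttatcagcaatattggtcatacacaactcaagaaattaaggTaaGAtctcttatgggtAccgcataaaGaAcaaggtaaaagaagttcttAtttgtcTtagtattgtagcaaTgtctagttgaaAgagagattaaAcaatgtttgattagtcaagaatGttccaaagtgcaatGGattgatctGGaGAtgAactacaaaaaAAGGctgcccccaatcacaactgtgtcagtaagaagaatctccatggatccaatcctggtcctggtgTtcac

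Among the 49 array probes, each of 60 bases, 3 pairs shared a run of 15 bases or more. None of these pairs included a gene called for a different fasting change between genotypes. Probes were compared only with each other, so whether a probe binds the transcript of another gene was not tested. Cyp2c67 and Cyp2c68 were read by probes identical at 55 of 59 aligned bases, and Cyp3a25 and Cyp3a57 at 49 of 52, so their values may hold signal of both genes, which was not tested. Capitals mark the bases with no identical partner in the other probe of the pair.
Cyp2c67: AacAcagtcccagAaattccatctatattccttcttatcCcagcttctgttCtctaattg
Cyp2c68: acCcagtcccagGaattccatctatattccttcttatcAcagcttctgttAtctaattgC
Cyp3a25: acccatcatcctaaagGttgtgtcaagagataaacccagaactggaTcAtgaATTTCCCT
Cyp3a57: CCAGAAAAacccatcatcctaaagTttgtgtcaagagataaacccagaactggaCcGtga

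Motif letters were searched on both strands in the promoter windows of these 41 genes, 43 windows in all. The forkhead letters TGTTTAC stood in those of 4 genes (9.76%, against 4.05% of the windows of 27025 genes), namely Cyp2c38, Cyp2j5, Cyp3a11 and Cyp3a16. The AHR letters TNGCGTG stood in 1 (2.44% against 5.84%), that of Cyp2c68, and the E-box CACGTG in 1 (2.44% against 8.09%), that of Cyp2j6. The STAT letters TTCNNNGAA (9.55% of all genes) and the PAR bZIP letters TTATGTAA (1.11%) were in none of the 41. The direct repeats of nuclear receptors known as DR1 (0.0481%) and DR4 (0.0148% for each form searched) were in none either. With shares this low, their absence from these windows says little. CACGTG and TNGCGTG share letters and can overlap.

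Values below are log2 of the spot's median intensity after quantile normalisation. Differences are log2 differences ± SE from limma with 6 arrays per group, Fasted minus Fed or LKO minus LWT, with p adjusted by Benjamini-Hochberg over all tested probes, and a gene counts as called where that p is no more than 0.05 and the change exceeds 1.5-fold. Groups are given by their lowest, median and highest array. The fit weights arrays, so a difference can depart slightly from that of the group medians. Each genotype's fasting change and each state's genotype difference reuse the same 4 groups, so the comparisons are set side by side and are not independent.

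In LWT livers, fasting changed 8 of these 49 genes (16.3%, against 10% of all genes tested), with 3 higher (4.82% of all genes) and 5 lower (5.22%). Cyp2j9, Cyp3a13 and Cyp2u1, the last by a probe described below, rose, and Cyp2c70, Cyp2c55, Cyp2c38, Cyp2r1 and Cyp2d40 fell. The median change of the 49 was -0.014, close to that of all genes (-0.008), and 26 of the 49 had a negative value. With the median over a gene's probes, 1 gene was higher, Cyp3a13, and 6 were lower.

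In LKO livers, fasting lowered 18 of 49 (36.7%, against 6.88% of all genes called lower and 12.8% called in either direction) and raised 0, where 5.90% of all genes were called higher. Cyp2j9 was called higher without the dim-probe filter, without array weights, with the replicate block, when LKO_Fed replicate 1 or 3 or LKO_Fasted replicate 3 or 6 was left out, and, with Cyp1b1, under the processed signal. In the direction of a rise, limma gave Cyp2j9, Cyp2t4, Cyp2u1 and Cyp3a13 an unadjusted p under 0.05. Cyp1b1 passed the dim-probe filter only through the Fasted groups, where it was highest. Its fitted values, also under the processed signal, are therefore no test of a rise. The median change of the 49 was -0.23 against -0.02 for all genes, with 36 negative. The 18 genes were Cyp2c70, Cyp2c55, Cyp1a2, Cyp2c38, Cyp2a4, Cyp2a5, Cyp2g1, Cyp2r1, Cyp2c37, Cyp2c29, Cyp2c50, Cyp2c54, Cyp2d22, Cyp2f2, Cyp2d40, Cyp2c40, Cyp2d13 and Cyp2a22, in order of size. The 5 genes that fell in LWT fell here too, and 13 were called in LKO and not in LWT. A different call is no test of a difference. Of these 13, the difference between the fasting changes was itself called for 8, as given next.

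The fasting change differed between genotypes for 8 of 49 genes (16.3%), each with the more negative change in LKO, where 3.11% of all genes were called for this difference and 1.55% in that direction. They were Cyp2a4, Cyp1a2, Cyp2a5, Cyp2g1, Cyp2d22, Cyp2c37, Cyp2c54 and Cyp2c50. The difference was negative for 43 of the 49, with a median of -0.30 against -0.00 for all genes. The count fell to 2, Cyp1a2 and Cyp2d22, without LKO_Fasted replicate 6 and to 3 without LKO_Fasted replicate 5. It was 4 without LKO_Fed replicate 5, LWT_Fed replicate 5 or LWT_Fasted replicate 4, and 5 without LKO_Fed replicate 6 or LWT_Fasted replicate 1. Without LKO_Fasted replicates 1 and 2 it stayed at 8, with Cyp2g1 lost and Cyp2a22 gained. With no filter on dim probes it was 4, with Cyp2a4, Cyp2a5, Cyp2c50 and Cyp2g1 lost.

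Between genotypes, Fed livers differed at 3 of 49 genes (6.12%, against 3.86% of all genes, 2.67% higher and 1.18% lower), with Cyp2c44 higher and Cyp2c55 and Cyp2d40 lower in LKO. Fasted livers differed at 11 of 49 (22.4%, against 4.06% of all genes, 2.28% lower and 1.78% higher), all of them lower in LKO. These 11 were Cyp2c70, Cyp2a4, Cyp2c55, Cyp2a5, Cyp2c38, Cyp2a22, Cyp2d22, Cyp2d40, Cyp1a2, Cyp2g1 and Cyp2d34. The median genotype difference of the 49 was -0.06 in Fed livers (-0.01 for all genes) and -0.38 in Fasted livers (-0.00 for all genes), with 27 and 42 negative. Without the minimum fold, 28 of the 49 passed in Fasted livers, all lower in LKO, where 20.6% of all genes passed, and 13 passed in Fed livers, where 16.4% did. The like counts were 17 with fasting in LWT (41.6% of all genes), 26 in LKO (41.5%) and 11 for the difference in fasting change (8% of all genes). The 17 include Cyp1a1, and the 26 include Cyp1a1 and Cyp1b1. These dim genes passed the filter only through groups where they were highest, so their part in the counts is no test.

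**Figure D1:**
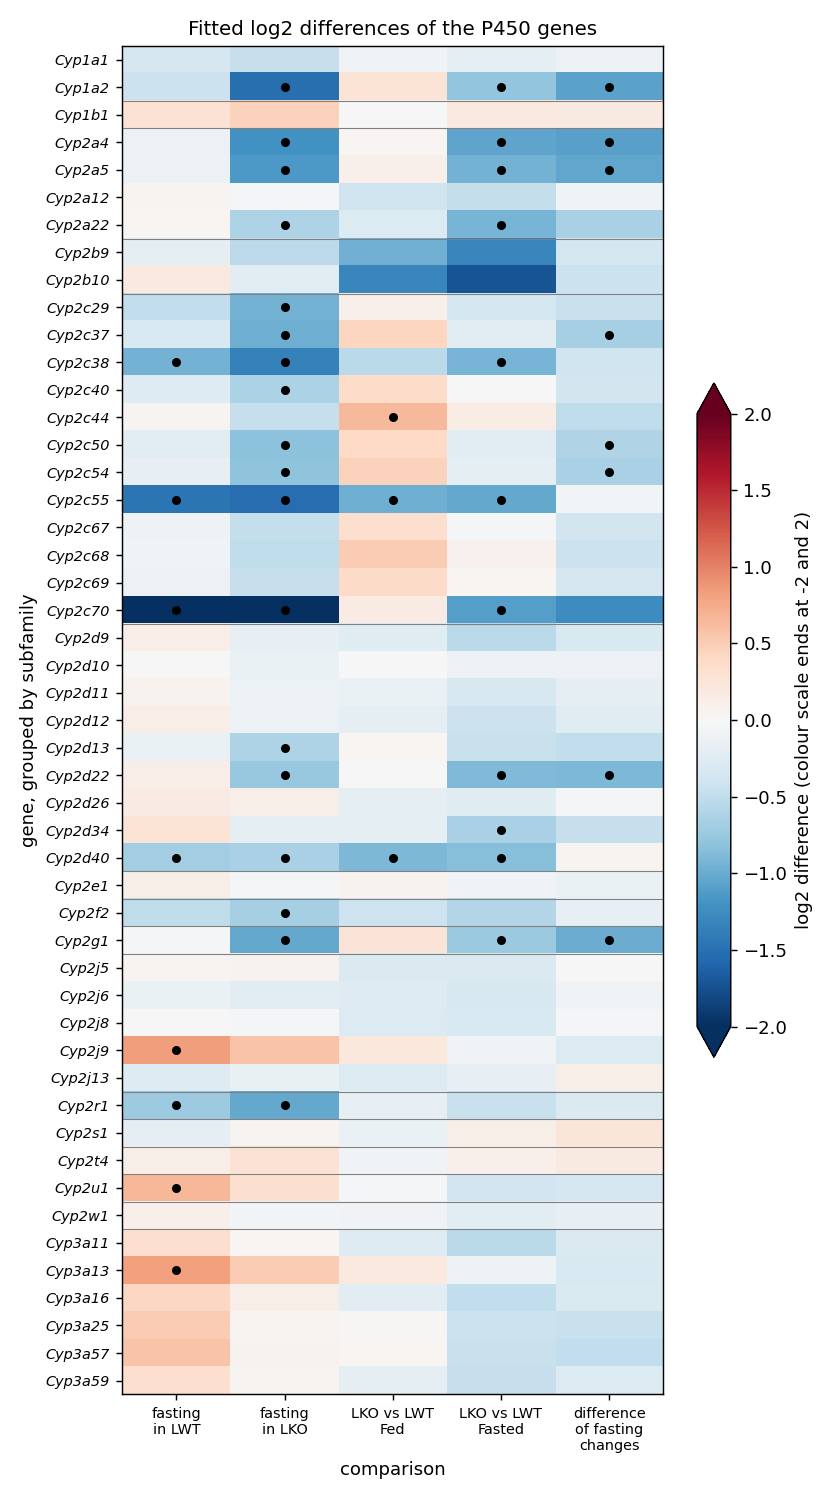
Fitted log2 differences of the 49 genes (rows, grouped by subfamily) in the 5 comparisons (columns), with a black dot where the gene was called. Fasting in LKO has 18 dots, all on blue (lower) cells, and the 3 dots on red cells in the first column are Cyp2j9, Cyp2u1 and Cyp3a13.

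**Figure D2:**
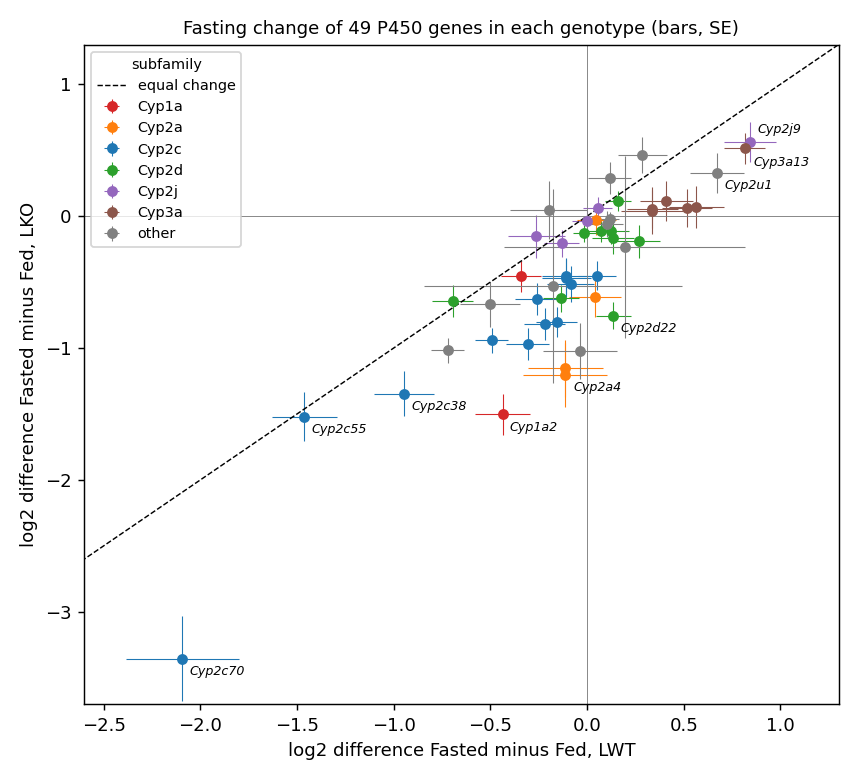
Fasting change (log2 difference Fasted minus Fed) of each of the 49 genes in LWT (horizontal axis) and LKO (vertical axis), with SE bars and colours by subfamily. Points below the dashed line of equal change had the more negative value in LKO, as 43 of 49 did, and all 6 Cyp3a genes lie below it with values above 0 in both genotypes.

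Among the family 1 genes, Cyp1a2, the enzyme of hepatocytes that clears caffeine and activates arylamines, fell with fasting in LKO and was lower in LKO than LWT after the fast. Cyp1a2 ran from 12.83 over a median of 13.02 to 13.59 in LWT_Fed, from 11.97 over a median of 12.56 to 12.94 in LWT_Fasted, from 13.03 over a median of 13.27 to 13.63 in LKO_Fed and from 11.20 over a median of 11.75 to 12.13 in LKO_Fasted. The 6 LKO_Fasted arrays lay below all 6 LKO_Fed arrays, while LWT groups overlapped. The fasting change was -1.50 ± 0.16 (adjusted p = 8.00e-08) in LKO, 2.83-fold, against -0.44 ± 0.14 (adjusted p = 0.0159) in LWT, and these changes differed by -1.07 ± 0.21 (adjusted p = 0.00369). The genotype difference was 0.28 ± 0.14 (adjusted p = 0.209) in Fed and -0.79 ± 0.15 (adjusted p = 0.000874) in Fasted livers. The call on the fasting difference held in each of the 24 fits that left out 1 array.

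Cyp1a1, the AHR target that oxidises polycyclic hydrocarbons and stands beside Cyp1a2 on chromosome 9 (mm9), was near the limit of detection. Its probe was well above background on 5 LWT_Fed, 3 LWT_Fasted, 4 LKO_Fed and 0 LKO_Fasted arrays, so LKO_Fed was at least 1.29-fold above LKO_Fasted. The bound sets each dim array at the lowest signal well above background on it or its own, whichever is higher. The measured means were 6.03 ± 0.19 and 5.59 ± 0.19 (SD, n = 6). The probe passed the filter on dim probes only through LWT_Fed, the group where it was highest, so no test of its fasting change is given. The fasting counts without a minimum fold nevertheless include it. Cyp1b1, an extrahepatic family member, was well above background on 1 LWT_Fed, 6 LWT_Fasted, 3 LKO_Fed and 6 LKO_Fasted arrays, with means of 5.74 ± 0.12, 6.06 ± 0.16, 5.78 ± 0.23 and 6.36 ± 0.59 (SD, n = 6) in that order, and its highest array was LKO_Fasted replicate 4 at 7.55.

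**Figure D3:**
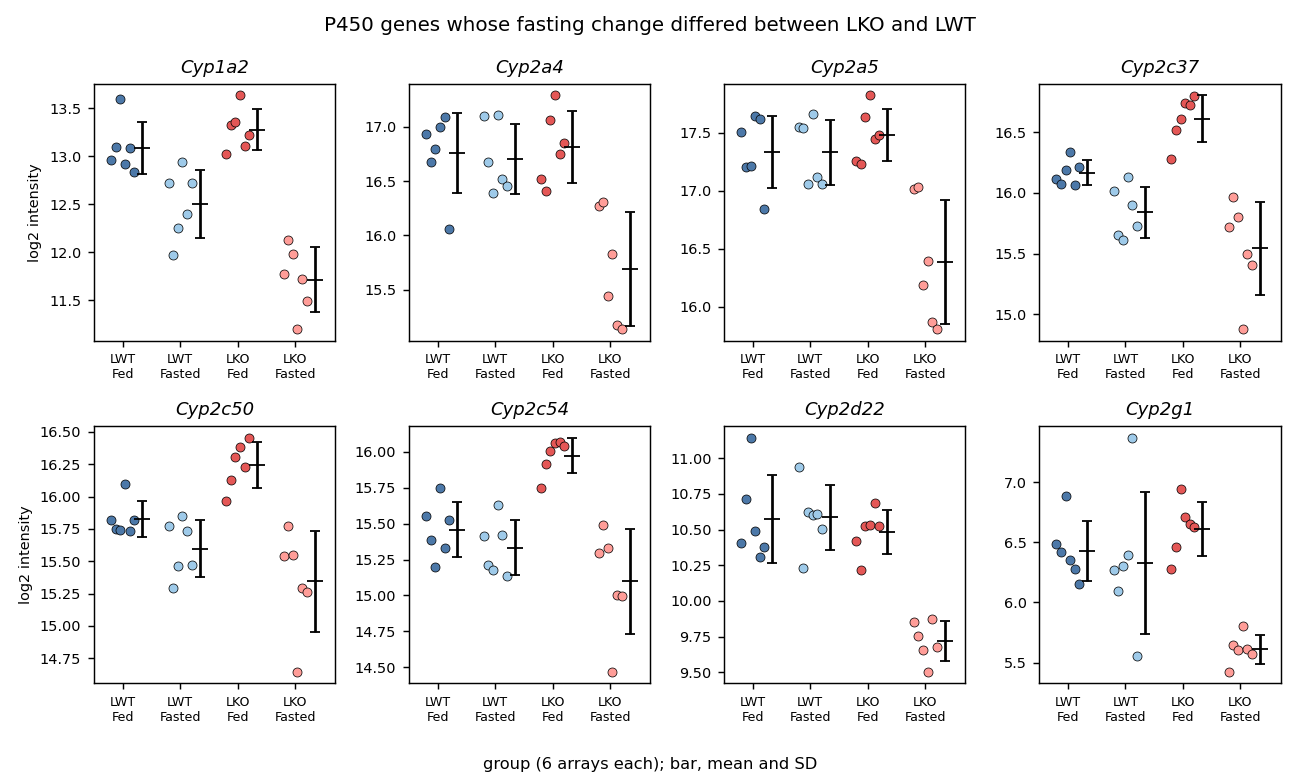
Log2 intensity on each array (points, 6 per group) of the 8 genes whose fasting change differed between genotypes, with the group mean and SD beside the points. LKO_Fasted is the lowest group in each panel, and for Cyp2d22, Cyp2a4 and Cyp2a5 the other 3 groups overlap one another.

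The Cyp2a subfamily on chromosome 7 includes the coumarin 7-hydroxylase Cyp2a5 and the steroid 15α-hydroxylase Cyp2a4. Of its 4 genes, 3 fell with fasting in LKO, where 6.88% of all genes were called lower. The same 3 were lower in fasted LKO than in fasted LWT (2.28% of all genes). None of the 4 was called with fasting in LWT or between genotypes in Fed livers. Cyp2a4 ran from 16.06 over a median of 16.87 to 17.09 in LWT_Fed, from 16.39 over a median of 16.60 to 17.11 in LWT_Fasted, from 16.41 over a median of 16.80 to 17.29 in LKO_Fed and from 15.14 over a median of 15.64 to 16.31 in LKO_Fasted. Cyp2a5 ran from 16.84 over a median of 17.36 to 17.64 in LWT_Fed, from 17.06 over a median of 17.33 to 17.66 in LWT_Fasted, from 17.23 over a median of 17.46 to 17.82 in LKO_Fed and from 15.80 over a median of 16.29 to 17.03 in LKO_Fasted. For both genes the LKO_Fasted arrays lay below all arrays of LKO_Fed and of LWT_Fasted, and the other 3 groups overlapped.

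The fasting change of Cyp2a4 was -0.12 ± 0.22 (adjusted p = 0.713) in LWT and -1.20 ± 0.24 (adjusted p = 0.000345) in LKO, and that of Cyp2a5 was -0.11 ± 0.19 (adjusted p = 0.685) and -1.15 ± 0.21 (adjusted p = 0.00015). The changes differed between genotypes by -1.09 ± 0.32 (adjusted p = 0.0436) for Cyp2a4 and -1.04 ± 0.29 (adjusted p = 0.0301) for Cyp2a5. The Cyp2a4 call was lost in 13 of 24 fits that left out 1 array, with values of -1.28 to -0.90, and that of Cyp2a5 in 5, with values of -1.24 to -0.85. In fasted livers LKO minus LWT was -1.05 ± 0.24 (adjusted p = 0.00311) for Cyp2a4 and -0.95 ± 0.21 (adjusted p = 0.00268) for Cyp2a5. The 2 promoters printed above differ at a few bases, and whether either probe also binds the other's transcript was not tested.

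Cyp2a22 fell less, with a fasting change of -0.61 ± 0.15 (adjusted p = 0.00232) in LKO and 0.04 ± 0.14 (adjusted p = 0.842) in LWT, and was -0.93 ± 0.15 (adjusted p = 0.000151) in fasted LKO against fasted LWT. Its LKO fasting call was lost with the replicate block and without LKO_Fed replicate 3 or 6 or LKO_Fasted replicate 5 or 6. The difference in its fasting change was not called in this fit. It was called with the processed signal, normexp, the deposited table, a filter asking for all 6 arrays of a group, or no slide term. It was also called in 6 of 24 fits that left out 1 array. Cyp2a12, a steroid hydroxylase, kept nearly the same level over the fast (0.05 and -0.03) and was lower in LKO by less than 1.5-fold in both states, at -0.40 ± 0.11 (adjusted p = 0.0127) Fed and -0.48 ± 0.11 (adjusted p = 0.00419) Fasted.

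Cyp2g1, Cyp2f2 and Cyp2t4 also lie on chromosome 7. Cyp2g1 ran from 6.16 over a median of 6.39 to 6.88 in LWT_Fed, from 5.55 over a median of 6.29 to 7.37 in LWT_Fasted, from 6.28 over a median of 6.64 to 6.94 in LKO_Fed and from 5.42 over a median of 5.61 to 5.80 in LKO_Fasted. Its fasting change was -1.03 ± 0.21 (adjusted p = 0.000481) in LKO and -0.04 ± 0.19 (adjusted p = 0.905) in LWT, a difference of -0.99 ± 0.29 (adjusted p = 0.0376). The gene, known from the olfactory mucosa, was dim, and its LKO_Fasted level lies mostly near background: its probe was well above background on 6, 5, 6 and 2 arrays of LWT_Fed, LWT_Fasted, LKO_Fed and LKO_Fasted, and its difference was lost in 10 of 24 fits that left out 1 array. In fasted livers LKO minus LWT was -0.74 ± 0.21 (adjusted p = 0.0147), a call lost without LWT_Fasted replicate 5 and when fitted on the 2 fasted groups alone. The probe did not pass the dim-probe filter through LKO_Fasted, so the size of each Cyp2g1 value that uses this group is uncertain. These calls are nevertheless counted in the totals above.

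Cyp2f2, which oxidises naphthalene and is known as a periportal gene in liver, fell with fasting in LKO by -0.67 ± 0.17 (adjusted p = 0.00317), a call lost without LKO_Fasted replicate 1, and its value was -0.50 ± 0.15 (adjusted p = 0.012) in LWT, called without LWT_Fasted replicate 4 or 5. In fasted livers LKO minus LWT was -0.58 ± 0.17 (adjusted p = 0.0166), just short of 1.5-fold, and it was called in 12 of 24 fits that left out 1 array and with the processed signal, normexp, no filter on dim probes or the replicate block. The value was -0.28, -0.34 and -1.11 within the 3 slides. Group means were 17.31 ± 0.19, 16.83 ± 0.33, 16.93 ± 0.24 and 16.25 ± 0.33 (SD, n = 6) in the order of the groups above. Cyp2t4 passed the test in none of the 5 comparisons, with values from -0.08 to 0.29.

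The phenobarbital-inducible Cyp2b genes, the classic targets of CAR, varied more between mice of one group than between groups. Cyp2b10 ran from 7.52 over a median of 9.06 to 10.28 in LWT_Fed, from 7.09 over a median of 9.07 to 10.49 in LWT_Fasted, from 6.03 over a median of 7.21 to 9.89 in LKO_Fed and from 6.18 over a median of 7.30 to 10.54 in LKO_Fasted. Cyp2b9 ran from 6.70 over a median of 8.17 to 9.49 in LWT_Fed, from 6.65 over a median of 7.87 to 9.01 in LWT_Fasted, from 5.40 over a median of 6.34 to 9.97 in LKO_Fed and from 5.64 over a median of 6.43 to 9.17 in LKO_Fasted. All 4 groups overlapped for both genes.

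In LKO_Fed, replicates 4 and 6 stood above the other 4 mice for both genes, and in LKO_Fasted replicates 4 and 1 did. The mice high in one gene were those high in the other: 5 of the 6 arrays with the highest Cyp2b10 were also among the 6 highest for Cyp2b9, and 5 of the 6 lowest were shared. The 5 highest arrays were the same for both genes, and 4 of them were the arrays numbered 4 in the 4 groups, a number that the labels tie to no shared animal or batch. LKO arrays made up 3 of the 6 highest and 5 of the 6 lowest for Cyp2b10. LKO minus LWT was -1.30 ± 0.64 (adjusted p = 0.177) Fed and -1.73 ± 0.68 (adjusted p = 0.0764) Fasted for Cyp2b10, and -0.96 ± 0.68 (adjusted p = 0.374) and -1.31 ± 0.72 (adjusted p = 0.22) for Cyp2b9, so these were the largest unsigned genotype values in Fasted livers and neither passed the test. Cyp2b10 passed in Fasted livers without the slide term (-1.88) and without LWT_Fasted replicate 2 or LKO_Fasted replicate 4. On the first slide alone its genotype difference in Fasted livers was 0.58, and that of Cyp2b9 0.59.

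**Figure D4:**
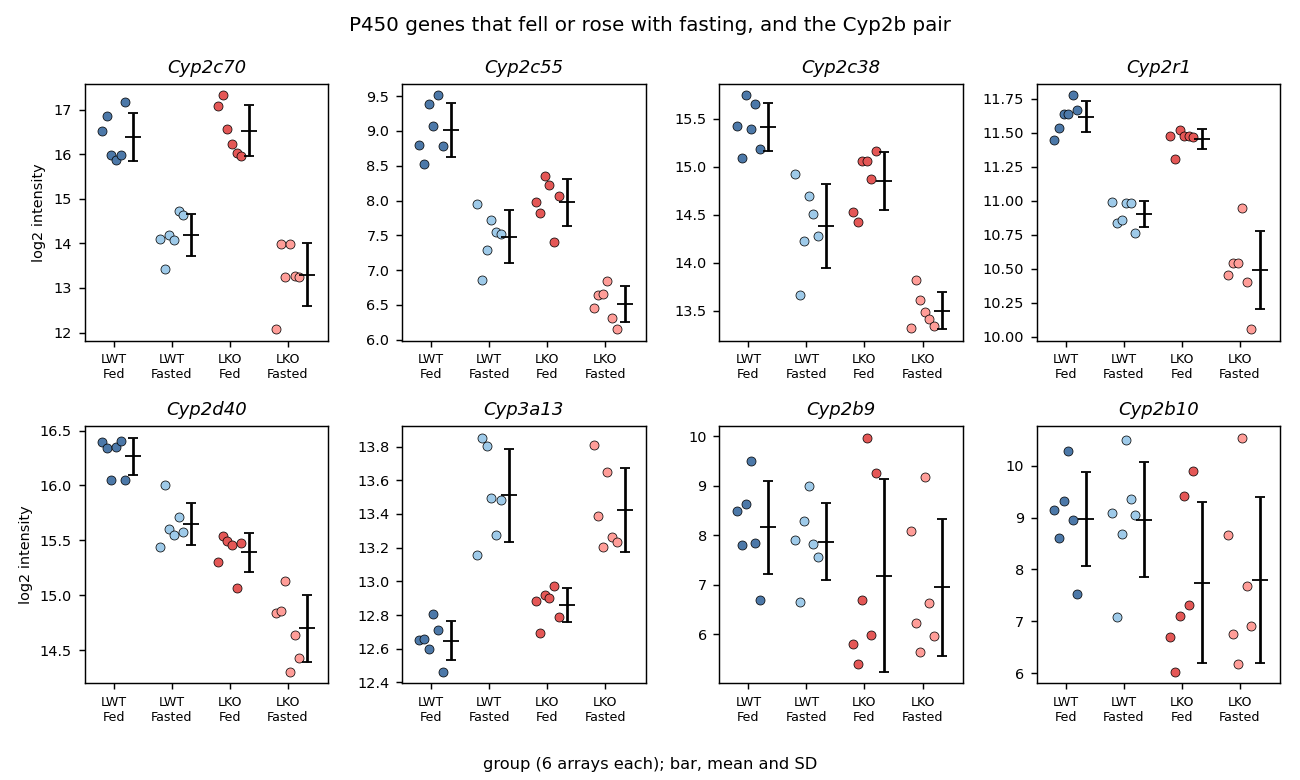
Log2 intensity on each array (points, 6 per group, mean and SD beside them) of 5 genes that fell with fasting in both genotypes, of Cyp3a13, which rose, and of Cyp2b9 and Cyp2b10. The first 6 panels separate Fed from Fasted arrays within LWT, while the Cyp2b panels overlap in all 4 groups.

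The Cyp2c subfamily on chromosome 19 is the one with the most members here. With fasting in LKO, 8 of its 12 genes were called lower (6.88% of all genes) and all 12 values were negative (median -0.81), against 3 of 12 called lower in LWT (5.22% of all genes, median -0.24). In fasted LKO against fasted LWT 3 of the 12 were called lower, as were 3 of 4 Cyp2a and 3 of 9 Cyp2d genes (2.28% of all genes). The largest change of any of the 49 genes was that of Cyp2c70, which makes the mouse muricholic acids from chenodeoxycholic acid. Cyp2c70 ran from 15.87 over a median of 16.25 to 17.16 in LWT_Fed, from 13.42 over a median of 14.14 to 14.72 in LWT_Fasted, from 15.96 over a median of 16.40 to 17.32 in LKO_Fed and from 12.08 over a median of 13.26 to 13.99 in LKO_Fasted. Fed and Fasted arrays did not overlap in either genotype, and fasted LKO and fasted LWT overlapped in part.

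Cyp2c70 changed by -2.09 ± 0.29 (adjusted p = 5.56e-06) in LWT, 4.27-fold, and by -3.35 ± 0.32 (adjusted p = 2.62e-08) in LKO, 10.2-fold. The difference between these changes was -1.26 ± 0.43 (adjusted p = 0.0796), which did not pass in this fit and did with the replicate number as a block or without LWT_Fed replicate 6. In fasted livers LKO minus LWT was -1.11 ± 0.32 (adjusted p = 0.0161), a call lost without LWT_Fasted replicate 6 and without array weights.

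Cyp2c55, which oxidises arachidonic acid, was lower both with fasting and in LKO. Cyp2c55 ran from 8.52 over a median of 8.94 to 9.51 in LWT_Fed, from 6.86 over a median of 7.53 to 7.95 in LWT_Fasted, from 7.40 over a median of 8.03 to 8.35 in LKO_Fed and from 6.15 over a median of 6.55 to 6.84 in LKO_Fasted. The 4 groups formed steps in which no Fed array overlapped a Fasted array of its genotype and no LKO array overlapped an LWT array of its state. Fasting changed it by -1.46 ± 0.17 (adjusted p = 4.13e-07) in LWT and -1.52 ± 0.18 (adjusted p = 8.07e-07) in LKO, and LKO minus LWT was -0.97 ± 0.17 (adjusted p = 0.000633) Fed and -1.03 ± 0.18 (adjusted p = 0.000384) Fasted. Its second probe gave values of the same sign, from -1.31 to -0.77, in these 4 comparisons.

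Cyp2c38 also fell in both genotypes, by -0.95 ± 0.15 (adjusted p = 3.80e-05) in LWT and -1.35 ± 0.17 (adjusted p = 1.43e-06) in LKO, and was -0.93 ± 0.17 (adjusted p = 0.000443) in fasted LKO against fasted LWT. Cyp2c38 ran from 15.09 over a median of 15.40 to 15.74 in LWT_Fed, from 13.66 over a median of 14.40 to 14.92 in LWT_Fasted, from 14.42 over a median of 14.96 to 15.16 in LKO_Fed and from 13.32 over a median of 13.45 to 13.82 in LKO_Fasted. Cyp2c29, an abundant liver epoxygenase, had no overlap between Fed and Fasted arrays in either genotype, with changes of -0.49 ± 0.09 (adjusted p = 7.32e-05) in LWT, short of 1.5-fold, and -0.94 ± 0.09 (adjusted p = 4.75e-08) in LKO. Its changes differed by -0.45 ± 0.13 (adjusted p = 0.034), also short of 1.5-fold.

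Cyp2c37, Cyp2c54 and Cyp2c50, neighbouring copies that oxidise arachidonic and linoleic acid, moved alike. Whether their probes also bind each other's transcripts was not tested. Cyp2c37 ran from 16.07 over a median of 16.15 to 16.34 in LWT_Fed, from 15.61 over a median of 15.81 to 16.13 in LWT_Fasted, from 16.28 over a median of 16.67 to 16.80 in LKO_Fed and from 14.88 over a median of 15.61 to 15.96 in LKO_Fasted. The fasting change of Cyp2c37 was -0.31 ± 0.11 (adjusted p = 0.032) in LWT and -0.97 ± 0.12 (adjusted p = 1.59e-06) in LKO, of Cyp2c54 -0.16 ± 0.10 (adjusted p = 0.238) and -0.80 ± 0.11 (adjusted p = 7.27e-06), and of Cyp2c50 -0.22 ± 0.11 (adjusted p = 0.11) and -0.82 ± 0.12 (adjusted p = 9.42e-06). These changes differed by -0.66 ± 0.17 (adjusted p = 0.0187), -0.64 ± 0.15 (adjusted p = 0.0142) and -0.60 ± 0.16 (adjusted p = 0.0271) in that order. Values in LKO_Fed were the highest of the 4 groups: LKO minus LWT in Fed livers was 0.43 ± 0.11 (adjusted p = 0.0137), 0.46 ± 0.11 (adjusted p = 0.0048) and 0.39 ± 0.11 (adjusted p = 0.019), each short of 1.5-fold. In fasted livers it was -0.23, -0.18 and -0.20 with adjusted p of 0.192, 0.289 and 0.242.

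The calls on these 3 differences were lost in 2, 3 and 10 of the 24 fits that left out 1 array, for Cyp2c37, Cyp2c54 and Cyp2c50, and that of Cyp2c50 also with the replicate block. The dimmer second probe of Cyp2c50 gave -0.70 for the difference and -0.59 in fasted livers, the latter called where the brighter probe was not.

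The other Cyp2c genes included Cyp2c44, an epoxygenase now named Cyp2c23 in RefSeq and the only one of the 49 called higher in LKO. Cyp2c44 ran from 14.39 over a median of 14.60 to 14.89 in LWT_Fed, from 14.32 over a median of 14.69 to 14.99 in LWT_Fasted, from 15.15 over a median of 15.26 to 15.50 in LKO_Fed and from 14.62 over a median of 14.88 to 15.02 in LKO_Fasted. No LKO_Fed array overlapped LWT_Fed, and the difference was 0.65 ± 0.10 (adjusted p = 0.000261), with 0.65 for its second probe. Fasting changed it by -0.45 ± 0.11 (adjusted p = 0.00211) in LKO and 0.05 ± 0.10 (adjusted p = 0.722) in LWT, and the changes differed by -0.50 ± 0.15 (adjusted p = 0.0416), short of 1.5-fold. By the second probe the LKO fall was called, at -0.59 (adjusted p = 0.00203), and the difference did not pass, at -0.59 (adjusted p = 0.0647). Cyp2c40 fell in LKO by -0.63 ± 0.12 (adjusted p = 0.000257), with -0.26 ± 0.11 (adjusted p = 0.0635) in LWT, and its call was lost without LKO_Fed replicate 2 or LKO_Fasted replicate 6. Cyp2c67, Cyp2c68 and Cyp2c69 had LKO fasting changes of -0.47, -0.51 and -0.45, all with an adjusted p of at most 0.05 and short of 1.5-fold. In Fed livers 10 of the 12 Cyp2c values of LKO minus LWT were above 0, with a median of 0.37, and the 2 below 0 were those of Cyp2c38 and Cyp2c55.

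The 9 Cyp2d genes on chromosome 15, relatives of the human debrisoquine hydroxylase, differed among themselves. Cyp2d22 fell with fasting in LKO and was lower in fasted LKO than in fasted LWT. Cyp2d22 ran from 10.31 over a median of 10.45 to 11.14 in LWT_Fed, from 10.23 over a median of 10.60 to 10.94 in LWT_Fasted, from 10.21 over a median of 10.53 to 10.69 in LKO_Fed and from 9.50 over a median of 9.71 to 9.88 in LKO_Fasted. LKO_Fasted arrays lay below all LKO_Fed and all LWT_Fasted arrays, and the other 3 groups overlapped. Its fasting change was -0.76 ± 0.10 (adjusted p = 3.47e-06) in LKO and 0.14 ± 0.09 (adjusted p = 0.256) in LWT, a difference of -0.89 ± 0.14 (adjusted p = 0.000501), which held in each of the 24 fits that left out 1 array. LKO minus LWT was 0.01 ± 0.09 (adjusted p = 0.961) Fed and -0.88 ± 0.10 (adjusted p = 3.91e-06) Fasted.

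Cyp2d40 was lower in LKO in both states and fell with fasting in both genotypes. Cyp2d40 ran from 16.05 over a median of 16.35 to 16.41 in LWT_Fed, from 15.44 over a median of 15.59 to 16.00 in LWT_Fasted, from 15.07 over a median of 15.47 to 15.54 in LKO_Fed and from 14.30 over a median of 14.74 to 15.13 in LKO_Fasted. LKO minus LWT was -0.91 ± 0.11 (adjusted p = 2.54e-05) Fed and -0.85 ± 0.12 (adjusted p = 3.38e-05) Fasted, and fasting changed it by -0.70 ± 0.11 (adjusted p = 2.14e-05) in LWT and -0.64 ± 0.12 (adjusted p = 0.000163) in LKO, the last lost without LKO_Fasted replicate 6. Its second probe, near background, also fell with fasting (-1.10 and -0.70), but gave -0.12 for LKO minus LWT in fasted livers. With the median over both probes the genotype call in fasted livers was lost.

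Cyp2d13 fell with fasting in LKO by -0.62 ± 0.10 (adjusted p = 4.84e-05), with -0.14 ± 0.09 (adjusted p = 0.264) in LWT, a call lost without LKO_Fasted replicate 6. Cyp2d34 was -0.64 ± 0.12 (adjusted p = 0.000718) in fasted LKO against fasted LWT, a call lost without LKO_Fasted replicate 4, the lowest array of Cyp2d9 as well, and the probes of these 2 genes share a run of 17 bases. Cyp2d9, the male-predominant steroid 16α-hydroxylase, was -0.54 ± 0.12 (adjusted p = 0.00235) in the same comparison, short of 1.5-fold. Cyp2d10 had values of -0.01 and -0.13 with fasting in LWT and LKO, and Cyp2d11, Cyp2d12 and Cyp2d26 were called in none of them.

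Cyp2r1, the vitamin D 25-hydroxylase, fell with fasting in both genotypes. Cyp2r1 ran from 11.45 over a median of 11.64 to 11.78 in LWT_Fed, from 10.76 over a median of 10.92 to 10.99 in LWT_Fasted, from 11.31 over a median of 11.48 to 11.52 in LKO_Fed and from 10.06 over a median of 10.50 to 10.95 in LKO_Fasted. Fed and Fasted arrays did not overlap in either genotype, with changes of -0.72 ± 0.09 (adjusted p = 6.44e-07) in LWT and -1.02 ± 0.09 (adjusted p = 1.55e-08) in LKO. In fasted livers LKO minus LWT was -0.45 ± 0.09 (adjusted p = 0.00138), short of 1.5-fold.

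Cyp2e1, the ethanol-oxidising enzyme that also uses ketone bodies, gave a very bright probe near the top of the array's range. Cyp2e1 ran from 18.38 over a median of 18.51 to 18.58 in LWT_Fed, from 18.59 over a median of 18.63 to 18.69 in LWT_Fasted, from 18.54 over a median of 18.58 to 18.61 in LKO_Fed and from 18.39 over a median of 18.55 to 18.68 in LKO_Fasted. Its changes were 0.12 ± 0.05 (adjusted p = 0.0548) in LWT and -0.02 ± 0.05 (adjusted p = 0.819) in LKO. A second, dimmer probe gave 0.46 in LWT and -0.06 in LKO, a difference of -0.52 with an adjusted p of 0.0061, each short of 1.5-fold.

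Of the 5 Cyp2j genes on chromosome 4, which make epoxides of arachidonic acid, Cyp2j9 rose with fasting. Group means were 9.58 ± 0.35 in LWT_Fed, 10.52 ± 0.19 in LWT_Fasted, 9.83 ± 0.19 in LKO_Fed and 10.43 ± 0.25 in LKO_Fasted (SD, n = 6). Fed and Fasted arrays did not overlap in either genotype, with changes of 0.84 ± 0.13 (adjusted p = 3.07e-05) in LWT and 0.56 ± 0.15 (adjusted p = 0.0042) in LKO, the latter short of 1.5-fold. Its dimmer second probe gave 0.27 and -0.24, so the LWT call was lost over both probes together. Cyp2j5 was -0.29 ± 0.08 (adjusted p = 0.0104) Fed and -0.28 ± 0.08 (adjusted p = 0.0145) Fasted in LKO against LWT, and Cyp2j6, Cyp2j8 and Cyp2j13 were called in none of the 5 comparisons.

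Cyp2u1, a fatty acid hydroxylase, was called in opposite directions by its probes with fasting in LWT. The brightest probe, used by the rule, holds a run of 32 bases of repeated GT, printed in capitals, and the second probe does not.
Cyp2u1 brightest probe: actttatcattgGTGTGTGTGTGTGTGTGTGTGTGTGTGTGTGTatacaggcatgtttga
Cyp2u1 second probe: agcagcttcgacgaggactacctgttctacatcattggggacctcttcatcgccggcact
The brightest probe averaged 16.84 over the 24 arrays and rose with fasting in LWT by 0.67 ± 0.14 (adjusted p = 0.000524), with 0.33 ± 0.15 (adjusted p = 0.0969) in LKO. The other 2 probes averaged 8.67 and 8.12 and fell, by 1.22 and 1.17 in LWT and by 1.53 and 1.79 in LKO, all called lower. The brightest probe's accession was not matched to a RefSeq gene, and what it binds was not tested. The rise of Cyp2u1 is therefore the value of that probe, and the median of the 3 probes gave -1.22 in LWT and -1.52 in LKO. Cyp2s1 and Cyp2w1 were dim and passed the test in none of the 5 comparisons.

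The Cyp3a genes on chromosome 5, the main PXR targets and oxidisers of a wide range of drugs and steroids, had fitted fasting changes above 0 in both genotypes. In LWT 1 of 6 was called higher (4.82% of all genes), with no call in LKO (5.90% of all genes higher). The changes ran from 0.34 to 0.82 in LWT (median 0.46) and from 0.04 to 0.51 in LKO (median 0.07). On the third slide 5 of the 6 LKO values were negative, from -0.44 to -0.26. Cyp3a13 was the gene called. Cyp3a13 ran from 12.46 over a median of 12.65 to 12.80 in LWT_Fed, from 13.16 over a median of 13.49 to 13.85 in LWT_Fasted, from 12.69 over a median of 12.89 to 12.97 in LKO_Fed and from 13.21 over a median of 13.33 to 13.81 in LKO_Fasted. Its changes were 0.82 ± 0.11 (adjusted p = 2.17e-06) and 0.51 ± 0.12 (adjusted p = 0.00118), and no Fed array overlapped a Fasted array of its genotype.

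Cyp3a25 and Cyp3a57, whose probes are near copies, had LWT changes of 0.52 ± 0.13 (adjusted p = 0.00267) and 0.56 ± 0.14 (adjusted p = 0.00296) and LKO changes of 0.06 and 0.07. In LWT Cyp3a57 was called without array weights and without LWT_Fed replicate 1 or 4 or LWT_Fasted replicate 3, 5 or 6, the last of which also made Cyp3a25 called. Cyp3a11, the major mouse Cyp3a, had 0.34 ± 0.16 (adjusted p = 0.102) in LWT and 0.04 ± 0.18 (adjusted p = 0.884) in LKO, with LKO minus LWT of -0.55 ± 0.17 (adjusted p = 0.031) in Fasted livers. The difference between genotypes in fasting change was negative for all 6 (-0.49 to -0.28), and the adjusted p ran from 0.159 to 0.498. In fasted livers all 6 were lower in LKO by value, and 5 had an adjusted p of at most 0.05, all short of 1.5-fold. Cyp3a11 was called in 6 of 24 fits that left out 1 array, namely LWT_Fasted replicate 2, 3, 5 or 6 or LKO_Fasted replicate 2 or 3. On the first slide alone these 5 lay between 0.00 and 0.12.

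P450 activity needs electrons and haem, and 15 genes of these supplies were tested. Fasting in LWT raised 3 and lowered 3 (4.82% and 5.22% of all genes), and fasting in LKO raised 3 and lowered 2 (5.90% and 6.88%). Between genotypes 1 of 15 differed in Fasted livers (4.06% of all genes) and 0 in Fed livers (3.86%). In the Fed comparison limma gave 5 an unadjusted p under 0.05. Por, the electron donor, rose by 1.65 ± 0.07 (adjusted p = 6.28e-13) in LWT and 1.14 ± 0.08 (adjusted p = 3.62e-10) in LKO, and Alas1, the rate-limiting enzyme of haem synthesis, by 0.88 ± 0.23 (adjusted p = 0.0036) and 1.12 ± 0.25 (adjusted p = 0.00108). Cyb5r3, the cytochrome b5 reductase, was the gene lower in fasted LKO, at -0.62 ± 0.07 (adjusted p = 4.99e-06). The difference in fasting change was called for 0 of 15 by limma (3.11% of all genes), with 6 at an unadjusted p under 0.05.

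Of 24 regulators of these genes listed, 22 were tested. Fasting in LWT raised 4 and lowered 2 (4.82% and 5.22% of all genes), and fasting in LKO raised 3 and lowered 3 (5.90% and 6.88%). Of the 22, 1 was lower in fasted LKO (2.28% of all genes) and 1 was called for the difference in fasting change (3.11%). The xenobiotic receptors Nr1i2 (PXR) and Nr1i3 (CAR) had changes of 0.98 ± 0.10 (adjusted p = 7.20e-08) and 0.68 ± 0.10 (adjusted p = 8.91e-06) in LWT, and 0.63 ± 0.11 (adjusted p = 8.62e-05) and 0.41 ± 0.11 (adjusted p = 0.00414) in LKO, the last short of 1.5-fold. Ahr, the receptor upstream of Cyp1a2, fell in LKO by -0.73 ± 0.23 (adjusted p = 0.0146) and was -0.04 ± 0.21 (adjusted p = 0.9) in LWT, and its changes differed by -0.69 ± 0.31 (adjusted p = 0.188). Hlf, a PAR bZIP factor that drives several P450 genes, was the regulator called lower in fasted LKO (-0.71 ± 0.12 (adjusted p = 0.000224)) and for the difference in fasting change (-0.59 ± 0.16 (adjusted p = 0.0279)).

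Of 16 further targets of AHR, CAR or PXR outside the P450 families, 14 were tested. Fasting raised 3 in LWT (4.82% of all genes) and raised 1 and lowered 4 in LKO (5.90% and 6.88%). Of all genes, 3.11% were called for the difference in fasting change. Sult1d1, a sulphotransferase, changed by 0.85 ± 0.20 (adjusted p = 0.00153) in LWT and -0.67 ± 0.22 (adjusted p = 0.0186) in LKO, and was the 1 of 14 called for the difference, at -1.52 ± 0.30 (adjusted p = 0.00355). The glutathione transferases Gstm1 and Gstm3 fell in LKO by -0.70 ± 0.11 (adjusted p = 1.73e-05) and -0.66 ± 0.09 (adjusted p = 6.58e-06). Gadd45b rose in both, by 1.96 ± 0.19 (adjusted p = 2.94e-08) and 2.33 ± 0.21 (adjusted p = 7.69e-09).

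Some of the 49 are known as sex-biased in mouse liver. Of 14 female-biased P450 names, 10 were tested, and 5 of 10 were lower with fasting in LKO (6.88% of all genes, 18 of the 49), 4 in fasted LKO against fasted LWT (2.28%, 11 of the 49), and 1 with fasting in LWT (5.22%, 5 of the 49). The 4 were Cyp2a4, Cyp2a22, Cyp2c38 and Cyp2g1. Neither of the 2 male-biased members, Cyp2d9 and Cyp2u1, was called in fasted LKO against fasted LWT, with values of -0.54 and -0.38. Of 7 female-biased genes outside the 3 families 2 were tested, and Cyp17a1 rose with fasting in LWT (0.71) and LKO (0.79). Of 7 male-biased genes outside the 3 families, 3 were lower in fasted LKO: Hsd3b5 at -2.02 ± 0.35 (adjusted p = 0.000357), Cyp4a12a at -0.71 ± 0.19 (adjusted p = 0.0109) and Selenbp2 at -0.68 ± 0.24 (adjusted p = 0.0464).

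Markers of the cell types in the samples were read beside these results. Of all genes, 4.82% were called higher and 5.22% lower with fasting in LWT, and 5.90% and 6.88% in LKO. Between genotypes 3.86% were called in Fed and 4.06% in Fasted livers, and 3.11% for the difference in fasting change. None of 6 hepatocyte markers was called by limma in any of the 5 comparisons, with 1 or 2 at an unadjusted p under 0.05 in each, and the log2 of their summed signal ran from 20.48 to 20.66 over the 24 arrays. With fasting, 2 of 11 pericentral hepatocyte markers outside the 49 were higher and 3 lower in LWT, and 2 higher and 4 lower in LKO, while of 7 periportal markers 3 were higher in LWT and 2 higher and 1 lower in LKO. Of the 11 pericentral markers, 1 was lower in fasted LKO and for the difference in fasting change, Lect2, at -1.01 ± 0.14 (adjusted p = 3.76e-05) and -0.69 ± 0.19 (adjusted p = 0.0318), and of 7 periportal markers 1 and 2 were, Hal in both and Sds in the latter. The summed signal of the 5 cholangiocyte markers was lower in LKO, at 9.61 to 10.84 Fed and 8.99 to 10.20 Fasted, against 11.03 to 11.74 and 10.75 to 11.10 in LWT, with 1 of 5 called in each state, Spp1 (-1.50 ± 0.23 (adjusted p = 0.00025) Fed, -2.10 ± 0.25 (adjusted p = 5.49e-06) Fasted). Of the 4 pancreas markers tested the summed signal was lowest in LKO_Fasted (12.81 to 13.21, against 13.53 to 14.23 in the other groups). With fasting, 2 of these 4 were called lower in each genotype, Cela1 (-0.60 in LWT, -1.04 in LKO) and Cela2a (-0.79 and -0.99). In LKO minus LWT, Cela2a was higher in both states (0.82 Fed, 0.63 Fasted) and Cela1 lower in Fasted livers (-0.76). Of the cholangiocyte markers, Krt19 fell with fasting in LWT (-0.67) and LKO (-0.59), and Spp1 in LKO (-0.95). For Kupffer cell, endothelium and stellate cell markers, 0, 0 and 0 of 5 each were called by limma in fasted LKO against fasted LWT, with 0, 1 and 0 at an unadjusted p under 0.05. In the other comparisons the endothelial Lyve1 was lower in Fed LKO (-0.88) and the stellate cell gene Lrat fell with fasting in LWT (-0.90) and LKO (-0.96). Of the 4 adipose markers tested, Fabp4 rose with fasting in LKO (0.83), was higher in fasted LKO (0.62) and was called for the difference in fasting change (1.07), and Cfd was lower in LKO in both states (-2.76 in Fed livers). Of the 4 erythroid markers tested, Alas2 was lower in LKO, Fed (-0.80) and Fasted (-0.83). The part of these markers in the P450 results was not tested.

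Each slide held 2 arrays of each group, and within each of the 3 slides every called value of the 49 genes kept its sign, for all 8, 18, 3, 11 and 8 calls of fasting in LWT, fasting in LKO, the Fed and the Fasted genotype difference, and the difference in fasting change. The interval of a value near 0 was wide for the Cyp2b genes, whose SE was 0.62 to 0.99, against 0.05 to 0.10 for Cyp2e1, Cyp2d10 and Cyp2d26.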

How the data were processed

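Liver RNA of 24 mice was hybridised to 1-colour Agilent arrays, 1 array per mouse. Per the file headers, the deposited scanner files hold spot intensity from Agilent Feature Extraction 10.10.1.1 (version from the submitters' processing notes), and the authors deposited a second table of log2 values, which served to choose probes and as an alternative. Here, in R 4.3.3 with limma 3.58.1, the median spot intensity was log2-transformed and quantile-normalised, and 32197 of 56605 probes, well above background on at least 5 of 6 arrays of 1 group or more, were fitted with group, slide and array weights. The slide stood in for the washing bath of the study's model, which the labels do not name. P-values were adjusted by Benjamini-Hochberg over all probes, and a call needed an adjusted p of at most 0.05 and over 1.5-fold. The number of arrays limits the precision.

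The 49 genes and all gene lists were chosen with earlier results of these data known. Genes were named with their values by the rule that took those called in any comparison, up to 10 in each direction, and a list of textbook members, and a few others were named after their values were seen. Alternatives covered the processed signal, background correction, the deposited table, the dim-probe filter, array weights, the slide term, the samples fitted, the probe rule, the minimum fold, a replicate block and leaving out arrays. The code was tested on simulated data. Probe positions are mm9 and promoter sequences RefSeq GRCm38.p6, as the array and the sequence table give them.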

Additional observations from a re-analysis of the deposited data

Results flagged for a closer look

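On single arrays, 14 of 196 group values (4 groups of each of the 49 genes) had 1 mouse far from the other 5, by a gap above Dixon's critical value for 6 samples, where chance gives about 1 in 20. In LWT_Fed they were Cyp1a2 (13.59), Cyp2a22 (13.49), Cyp2d13 (11.21) and Cyp2d34 (12.00) in replicate 3, Cyp1b1 in replicate 2 (5.51) and Cyp2c50 in replicate 4 (16.10). In LWT_Fasted it was Cyp2j13 in replicate 5 (8.72). In LKO_Fed they were Cyp2c29 in replicate 1 (16.48) and Cyp2c68 (15.88) and Cyp2r1 (11.31) in replicate 2. In LKO_Fasted replicate 4 they were Cyp1b1 (7.55), Cyp2d9 (14.11), Cyp2d11 (16.73) and Cyp2d34 (9.92), the last of which loses its call in fasted livers without that array. LWT_Fed replicate 3 and LKO_Fasted replicate 4, the 2 arrays of lowest fitted weight (0.32 and 0.36), hold 8 of the 14.

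The fasting change differed between genotypes, by the test of the difference itself, for 11 genes, with LKO minus LWT values of -1.07 for Cyp1a2, -1.09 for Cyp2a4, -1.04 for Cyp2a5, -0.45 for Cyp2c29, -0.66 for Cyp2c37, -0.50 for Cyp2c44, -0.60 for Cyp2c50, -0.64 for Cyp2c54, -0.49 for Cyp2d13, -0.89 for Cyp2d22 and -0.99 for Cyp2g1. Those of Cyp2c29, Cyp2c44 and Cyp2d13 were short of 1.5-fold.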

How the results depend on the processing

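Of the values of single genes recomputed under the alternatives, 5518 kept their side of the threshold or, on single slides, lay within the spread between mice. A further 142 single-slide values moved by more than that spread, 88 values passed the threshold newly, 65 no longer passed it and 2 turned. A turn was counted only for values called before or after, so uncalled values that changed sign are not among the 2. The 2 that turned were Cyp2u1 with the median over its probes, at -1.22 in LWT and -1.52 in LKO. Without a minimum fold, the number of the 49 genes called was 17 with fasting in LWT, 13 between genotypes in Fed and 28 in Fasted livers. With no filter on dim probes, 4 genes were called for the difference in fasting change, with Cyp2a4, Cyp2a5, Cyp2c50 and Cyp2g1 lost, and the cause was not tested. Leaving out 1 array in turn gave 8 to 10 calls with fasting in LWT, 15 to 19 in LKO, 3 to 4 between genotypes in Fed and 11 to 14 in Fasted livers, and 2 to 10 for the difference in fasting change. Dim probes (Cyp1a1, Cyp1b1, Cyp2g1) are limited by signal over background.

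With the replicate number as a block, the calls were 8 with fasting in LWT, 18 in LKO (17 lower and 1 higher, with Cyp2a22 lost and Cyp2j9 gained), 4 between genotypes in Fed and 12 in Fasted livers, and 8 for the difference, of which 7 were the same genes, with Cyp2c50 lost and Cyp2c70 gained. Same-numbered arrays of different groups correlated between -0.18 and 0.28, with 4 of 36 pairs over 0.1. Arrays with different numbers correlated between -0.34 and 0.38, with 26 of 180 pairs over 0.1. The labels do not say what the number means, and whether it links mice in another way was not tested.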
